A study of Mus musculus with 36 samples.

Results

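Avil, Stmn4, Kif21b and Car6 are 4 of the 36856 gene symbols in a count table from mouse embryonic fibroblasts (MEF), grouped because earlier results of these libraries showed low counts without stress and large rises under stress compounds. They were chosen by these measured rises against DMSO, which are therefore described here with no test. The table held 36 RNA-seq libraries in 12 groups of 3. The cells were WT or PERK -/-, and each genotype received DMSO (the vehicle), thapsigargin (Tg), BtdCPU, halofuginone, BtdCPU with thapsigargin or halofuginone with thapsigargin. All 12 groups are of the cell type MEF, and the labels name 1 cell line for all of them. Whether the genotypes come from littermates, how many lines were used, the doses and the times are not given in the sources used here, so the genotype and the origin of the cells cannot be told apart. A low level at rest held for Avil, Stmn4 and Car6 in both genotypes but for Kif21b only in PERK -/- cells: in WT cells under DMSO the 3 libraries held 588, 659 and 610 Kif21b counts.

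PERK, encoded by Eif2ak3, is one of the kinases that phosphorylate the translation factor eIF2 alpha and so start the integrated stress response, in which the factors ATF4 and CHOP (Ddit3) raise a set of target genes. Thapsigargin empties the calcium store of the endoplasmic reticulum (ER) and is the usual activator of PERK. BtdCPU acts through the kinase HRI and halofuginone, which blocks prolyl-tRNA synthetase, through the kinase GCN2, so both reach eIF2 alpha without PERK. Avil encodes advillin, an actin-binding protein of the gelsolin and villin family best known from sensory neurons. Car6 encodes carbonic anhydrase VI, a secreted enzyme of saliva. Both are old members of the genes called downstream of CHOP, as their RefSeq synonyms DOC6 (Avil) and DOC1 (Car6) record, and for Car6 a stress-induced form from an internal start has been described. Kif21b encodes a kinesin motor that moves along microtubules in neurons and immune cells, and Stmn4 encodes a stathmin that binds tubulin in neurons.

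The promoter windows of Avil and Car6 are shown because the reference used held none for Stmn4 and Kif21b, which were therefore not searched. Avil and Car6 moved together over the libraries. Avil holds the core of the C/EBP-ATF element, through which ATF4 and CHOP act, beside its start. The RefSeq table of GRCm38.p6 gave a window of 300 bases for 2 of the 4 genes (250 bases before and 50 after the start). The submitters' processing notes name GRCm39, so these positions are not those of the counts. The Avil window is on chromosome 10, plus strand, chr10:127000459-127000758, and the Car6 window on chromosome 4, minus strand, chr4:150201086-150201385. Capitals mark the core, TGATGNAA.
Avil: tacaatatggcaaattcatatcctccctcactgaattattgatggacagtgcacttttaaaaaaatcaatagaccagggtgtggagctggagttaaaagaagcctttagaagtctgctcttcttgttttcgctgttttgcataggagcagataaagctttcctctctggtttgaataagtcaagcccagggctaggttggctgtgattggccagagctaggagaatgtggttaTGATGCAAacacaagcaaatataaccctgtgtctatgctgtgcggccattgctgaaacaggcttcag
Car6: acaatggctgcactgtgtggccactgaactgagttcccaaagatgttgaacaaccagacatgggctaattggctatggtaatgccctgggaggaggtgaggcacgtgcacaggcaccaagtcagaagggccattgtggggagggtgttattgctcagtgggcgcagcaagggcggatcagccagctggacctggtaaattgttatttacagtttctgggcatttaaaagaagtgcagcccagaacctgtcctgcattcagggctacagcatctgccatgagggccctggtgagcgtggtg

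The core was searched on both strands and stood in 3.97% of 32851 windows of this length. In Avil it began at position -17 from the start, on the strand of the gene. The Car6 window holds neither this core nor the unfolded protein response element TGACGTGG (0.676% of windows), the cAMP response element TGACGTCA (1.79%) or the ER stress response element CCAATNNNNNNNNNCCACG (0.119%), which says only that these letters are not in this window. The Car6 window lies at the start given by the RefSeq table, and the internal start described for the stress-induced form was not searched. Of 8 stress genes used for comparison, 4 held the core: Trib3, Chac1, Asns and Atf3. Set beside that of Avil, the stretches are read on the strand of the match with 8 bases on either side of the core, which is in capitals.
Avil: tgtggttaTGATGCAAacacaagc
Trib3: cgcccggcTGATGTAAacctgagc
Chac1: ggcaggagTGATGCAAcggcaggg
Asns: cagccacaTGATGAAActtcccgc
Atf3: ggacttggTGATGCAAgtgcgaga

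The libraries held 32454257 to 37178107 counts each. Eif2ak3, the targeted gene, stood at 31.1 ± 1.10 CPM (counts relative to the TMM-scaled size of the library; SD, n = 3) in WT and 9.95 ± 0.760 in PERK -/- cells under DMSO, and the PERK -/- libraries of all treatments held 279 to 1337 Eif2ak3 counts. Transcript was thus still counted in every PERK -/- library, and counts of a gene do not tell whether its protein is made. Of 10 fibroblast markers, 9 exceeded 1 CPM in every library. Lum, the other one, averaged 0.0995 to 0.218 CPM in the PERK -/- groups. Of the 12 neuron markers, Tubb3 (10.3 to 227 CPM) and Map2 (7.23 to 59.7 CPM) exceeded 1 CPM in every library, Nefl reached 21.1 and Nefm 3.93 CPM, and Isl1, Elavl4 and Snap25 were at 0 in 30 to 35 of 36 libraries. Among salivary markers Aqp5 reached 2.64 CPM, while Smr3a and Pip were at 0 in all 36, and among leukocyte markers Itgam reached 2.31 and Ptprc 0.956 CPM, while Cd3e was at 0 in all.

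Avil was lowest in WT cells under DMSO, with 11, 13 and 9 counts (0.319 ± 0.0436 CPM). Thapsigargin gave 656, 645 and 617 counts (18.3 ± 1.75 CPM), the highest level of the WT groups, 5.82 (SE 0.452) above DMSO on the log2 scale. All 3 WT thapsigargin libraries lay above every other WT library. BtdCPU alone gave 68, 57 and 117 counts (2.47 ± 0.995 CPM) and halofuginone alone 150, 159 and 128 (4.42 ± 0.408 CPM). The libraries with BtdCPU and thapsigargin held 334, 423 and 143 counts (7.97 ± 3.77 CPM), and those with halofuginone and thapsigargin 165, 219 and 75 (4.30 ± 1.99 CPM). Replicate 3 was the lowest of the 3 in both combinations, and the combination with halofuginone overlapped halofuginone alone. Fewer cells that carry a transcript and less of it per cell cannot be told apart in such bulk libraries.

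In PERK -/- cells the order of the Avil levels was another one. Under DMSO the libraries held 52, 44 and 108 counts (1.85 ± 0.923 CPM). Thapsigargin gave 78, 112 and 133 (2.91 ± 0.730 CPM), which overlapped DMSO and differed from it by 0.65 (SE 0.368) on the log2 scale. BtdCPU gave 150, 145 and 190 counts (4.33 ± 0.720 CPM), above all 3 DMSO libraries. Halofuginone gave 615, 731 and 526 (17.0 ± 2.85 CPM), BtdCPU with thapsigargin 602, 542 and 930 (18.7 ± 5.64 CPM), and halofuginone with thapsigargin 706, 903 and 555 (19.3 ± 4.99 CPM). These 3 PERK -/- groups and the WT thapsigargin group overlapped in level and formed the top of the 12 groups, with a gap to the next, WT BtdCPU with thapsigargin. Between the lowest group and that gap every group from PERK -/- DMSO up overlapped its neighbour in the order.

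Car6 had a like course, from fewer counts. WT cells under DMSO held 6, 3 and 0 counts (0.0852 ± 0.0857 CPM), a level at which 1 library decides a fold change. Thapsigargin gave 481, 496 and 425 counts (13.4 ± 1.54 CPM), 152 times the summed level under DMSO with an exact counting interval of 79.9 to 333 (95%, counting error only). BtdCPU gave 205, 98 and 201 counts (5.22 ± 2.14 CPM) and halofuginone 152, 167 and 40 (3.61 ± 2.06 CPM). With both BtdCPU and thapsigargin there were 370, 374 and 206 counts (8.42 ± 2.59 CPM), and with halofuginone and thapsigargin 126, 184 and 36 (3.24 ± 2.05 CPM). Each treated WT library lay above every DMSO library, and replicate 3 was the low one in both halofuginone groups. Without WT DMSO replicate 1, the fitted Car6 difference from DMSO was 8.13 in place of 7.20 on the log2 scale for thapsigargin, 6.77 in place of 5.84 for BtdCPU and 6.25 in place of 5.32 for halofuginone.

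PERK -/- cells held 11, 18 and 37 Car6 counts under DMSO (0.597 ± 0.358 CPM) and 18, 42 and 32 under thapsigargin (0.829 ± 0.330 CPM), groups that overlapped. BtdCPU alone gave 203, 153 and 169 counts (4.69 ± 0.701 CPM), and halofuginone alone 442, 572 and 618 (14.9 ± 2.62 CPM). The combination of BtdCPU and thapsigargin gave 603, 559 and 1116 (20.5 ± 8.37 CPM), with replicate 3 apart from the other two, and that of halofuginone and thapsigargin 439, 481 and 428 (12 ± 0.955 CPM). As with Avil, these 3 PERK -/- groups and WT thapsigargin were the 4 highest, each overlapping its neighbour, and were separated from the other 8.

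Kif21b differed in its level at rest. WT libraries under DMSO held 588, 659 and 610 counts (18.1 ± 1.11 CPM), and PERK -/- libraries 31, 30 and 37 (0.890 ± 0.0920 CPM). In WT cells thapsigargin gave 4555, 5867 and 7072 counts (165 ± 28.3 CPM), 3.19 (SE 0.309) above DMSO on the log2 scale. BtdCPU gave 3835, 2287 and 4298 counts (107 ± 36.9 CPM), and BtdCPU with thapsigargin 5620, 5635 and 5579 (149 ± 3.03 CPM), which overlapped thapsigargin alone. Halofuginone gave 981, 1660 and 487 counts (31.4 ± 16.8 CPM): replicate 3 lay below all DMSO libraries and the other two above. Halofuginone with thapsigargin gave 1795, 2899 and 1161 counts (54.8 ± 23.6 CPM), again lowest in replicate 3 but above every DMSO library.

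The PERK -/- groups of Kif21b were ordered with no overlap from DMSO through thapsigargin (50, 65 and 85 counts, 1.80 ± 0.458 CPM) and BtdCPU (182, 176 and 239 counts, 5.34 ± 1.01 CPM) to halofuginone (490, 642 and 533 counts, 15.2 ± 2.26 CPM). Halofuginone with thapsigargin gave 531, 656 and 596 counts (15.9 ± 1.92 CPM) and overlapped halofuginone alone. BtdCPU with thapsigargin gave 1000, 861 and 1532 (30.5 ± 9.55 CPM), the highest PERK -/- group, 5.09 (SE 0.390) above DMSO on the log2 scale. The 5 lowest of the 12 groups were PERK -/-, and the 3 highest were WT groups with thapsigargin or BtdCPU.

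The highest levels of Stmn4 were those of the WT halofuginone groups. WT cells under DMSO held 1, 0 and 0 counts and under BtdCPU 3, 0 and 3, both at or under the floor of 3 counts per library, so no fold change between them is given. Halofuginone gave 750, 726 and 680 counts (21.8 ± 1.22 CPM). Against the single count under DMSO, the ratio of the sums was 2244 with an exact counting interval of 402 to 88689. Halofuginone with thapsigargin gave 555, 600 and 427 counts (14.9 ± 2.42 CPM), below halofuginone alone in all 3 libraries. Thapsigargin alone gave 23, 49 and 32 counts (0.974 ± 0.315 CPM; ratio to DMSO 102, interval 17.8 to 4049), and BtdCPU with thapsigargin 69, 92 and 55 (1.91 ± 0.481 CPM). The WT DMSO and BtdCPU libraries were the lowest of all, and the 2 WT halofuginone groups the highest, separated from each other and from the rest.

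Stmn4 was counted in every PERK -/- library. DMSO gave 20, 20 and 16 counts (0.509 ± 0.0684 CPM), thapsigargin 14, 32 and 15 (0.551 ± 0.279 CPM), BtdCPU 26, 27 and 29 (0.732 ± 0.0487 CPM) and BtdCPU with thapsigargin 27, 38 and 34 (0.892 ± 0.158 CPM). Thapsigargin overlapped DMSO, with a difference of 0.11 (SE 0.390) on the log2 scale, whereas each BtdCPU library lay above all DMSO libraries. Halofuginone gave 145, 82 and 228 counts (4.14 ± 2.01 CPM) and halofuginone with thapsigargin 204, 173 and 221 (5.32 ± 0.573 CPM), groups that overlapped each other and lay above the other PERK -/- groups.

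**Figure D1:**
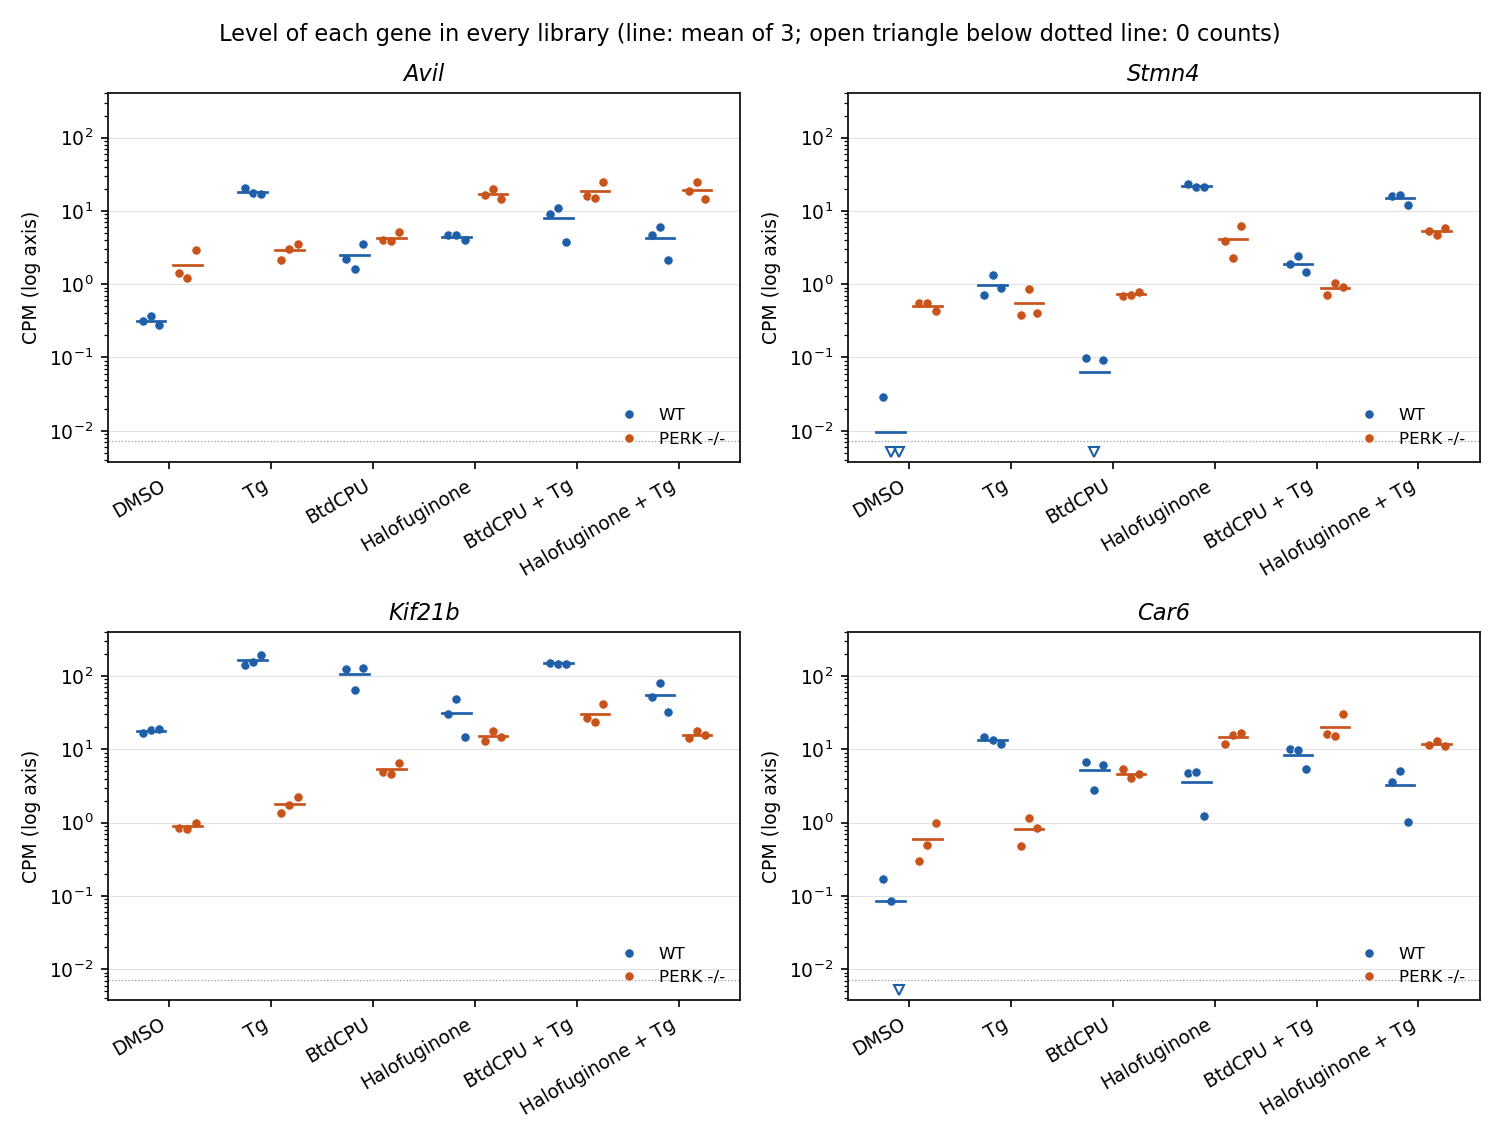
Level of each gene in CPM (log axis) in every library of the 12 groups, by treatment; blue points are WT and orange points PERK -/- libraries, lines are means of 3, and open triangles under the dotted line are libraries with 0 counts. Avil and Car6 were highest in WT cells under thapsigargin and in PERK -/- cells under halofuginone and both combinations, Kif21b was higher in WT than in PERK -/- groups under DMSO, thapsigargin and BtdCPU, and Stmn4 was highest in the WT halofuginone groups.

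The rule that chose the genes names low levels at rest and rises under stress compounds, and 4 of their values over thapsigargin had also been picked earlier for size. The difference between genotypes at the same treatment was tested over all 16065 genes that passed the filter on low counts; all 4 genes passed it. The DMSO libraries that gave the low levels enter the tests at rest. The treated libraries that gave the rises enter the other tests between genotypes, those over thapsigargin and those of halofuginone against BtdCPU. None of these tests is thus free of the choice. At rest, PERK -/- cells held more Avil (5.72-fold; log2 difference 2.52, SE 0.493, edgeR quasi-likelihood adjusted p = 7.96e-05) and less Kif21b (-4.34, SE 0.389, adjusted p = 5.99e-11). Stmn4 was higher in PERK -/- cells (adjusted p = 2.89e-06), with 56 counts against 1 over 3 libraries, a ratio of 52.3 and a counting interval of 9.02 to 2104; without WT DMSO replicate 1, which held that count, the fitted difference was 7.20 in place of 5.28. Car6 was higher by 2.73 (SE 0.904, adjusted p = 0.0127). That call was lost without WT DMSO replicate 3 (2.20, adjusted p = 0.0622) and without PERK -/- DMSO replicate 3 (2.14, adjusted p = 0.0972), and without WT DMSO replicate 1 the value was 3.66. All 4 genes thus passed at rest, beside 49.5% of all tested genes, so passing is not in itself particular to them.

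Under thapsigargin all 4 genes were lower in PERK -/- cells, beside 65.6% of all genes called in either direction. Avil was lower by a log2 difference of -2.65 (SE 0.346, edgeR adjusted p = 6.71e-08), Kif21b by -6.52 (SE 0.379, adjusted p = 1.65e-15) and Car6 by -4.0 (SE 0.489, adjusted p = 1.92e-08), with no overlap between genotypes. For Stmn4 the groups overlapped and the difference was -0.83 (SE 0.360, adjusted p = 0.0434). That call was lost without any 1 of WT Tg replicates 2 and 3 and PERK -/- Tg replicates 1 and 3 (adjusted p 0.0536 to 0.245), when scaled by library size alone (adjusted p = 0.0652), and in a fit of the compared groups alone (adjusted p = 0.102). Tubb3 was also higher in WT cells under thapsigargin: it averaged 217 CPM there, 60.4 under DMSO and 85.1 in PERK -/- cells under thapsigargin. The summed level of the 12 neuron markers was 220 to 244 CPM in WT cells under thapsigargin and 71.5 to 78.6 under DMSO. In PERK -/- cells under thapsigargin it was 113 to 135 CPM. Map2 (8.97 CPM in WT and 36.3 in PERK -/- cells) and Prph (0.288 and 0.622) went the other way between genotypes under thapsigargin. Tubb3 averaged 55.0 CPM under BtdCPU, 18.1 under halofuginone and 37.5 under halofuginone with thapsigargin in WT cells. In WT cells Nefl averaged 3.95 CPM under DMSO and 1.34 under thapsigargin. Nefm (0.198 and 0.497), Prph (0.104 and 0.288), Syn1 (2.48 and 4.25), Syt1 (0.505 and 1.33) and Map2 (8.15 and 8.97) averaged higher under thapsigargin. The part of these markers in the difference was not tested, while Isl1 and Elavl4 were at 0 in every WT thapsigargin and WT DMSO library.

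Under BtdCPU alone 2 of 4 genes differed between genotypes, beside 53.0% of all genes. Kif21b was lower in PERK -/- cells (-4.33, SE 0.334, edgeR adjusted p = 1.89e-12). Stmn4 was higher (adjusted p = 4.83e-06), with 82 counts in PERK -/- cells against 6 in WT cells; without WT BtdCPU replicate 2, the one with 0 counts, the log2 difference was 2.90 in place of 3.51. Avil differed by 0.81 (95% interval 0.08 to 1.54, adjusted p = 0.0545), and this passed the threshold with DESeq2 (adjusted p = 0.0389), when scaled by library size alone (0.0232), with no filter (0.000745), in a fit of the compared groups alone (0.0423) and without WT BtdCPU replicate 3 (0.0177). For Car6 the groups overlapped and the difference was -0.15 (95% interval -1.01 to 0.71, adjusted p = 0.789).

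Under halofuginone the genes fell into pairs by the sign of the difference between genotypes. Avil (2.52), Car6 (2.73) and Kif21b (-4.34) had the same sign under DMSO, and Stmn4 (5.28) had the opposite one. Under halofuginone alone, Avil (1.95, SE 0.335, edgeR adjusted p = 7.64e-06) and Car6 (2.04, SE 0.423, adjusted p = 0.000102) were higher in PERK -/- cells, and Stmn4 (-2.40, SE 0.273, adjusted p = 5.47e-09) and Kif21b (-1.05, SE 0.295, adjusted p = 0.00251) were lower. The background was 65.9% of genes. The Kif21b groups overlapped, and its call was lost without WT halofuginone replicate 2 (-0.58, adjusted p = 0.0837). With thapsigargin added to halofuginone, the differences were 2.17 for Avil (SE 0.335, adjusted p = 1.72e-06), 1.89 for Car6 (SE 0.424, adjusted p = 0.000289), -1.48 for Stmn4 (SE 0.266, adjusted p = 1.64e-05) and -1.78 for Kif21b (SE 0.297, adjusted p = 5.46e-06), all 4 called beside 62.1% of genes and none with overlapping groups.

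BtdCPU with thapsigargin gave the same split, with 4 of 4 genes called beside 60.3% of all genes. PERK -/- cells held more Avil (1.23, SE 0.321, edgeR adjusted p = 0.00152) and Car6 (1.28, SE 0.400, adjusted p = 0.00669), and less Stmn4 (-1.10, SE 0.317, adjusted p = 0.00369) and Kif21b (-2.29, SE 0.296, adjusted p = 8.40e-08). The Car6 call was lost without PERK -/- BtdCPU + Tg replicate 3, the library with 1116 counts (0.94, adjusted p = 0.0633). Kif21b was the 1 gene of the 4 that was lower in PERK -/- cells at all 6 treatments, while Avil, Car6 and Stmn4 were higher at rest and lower under thapsigargin. For Stmn4 the call under thapsigargin was lost without single libraries.

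**Figure D2:**
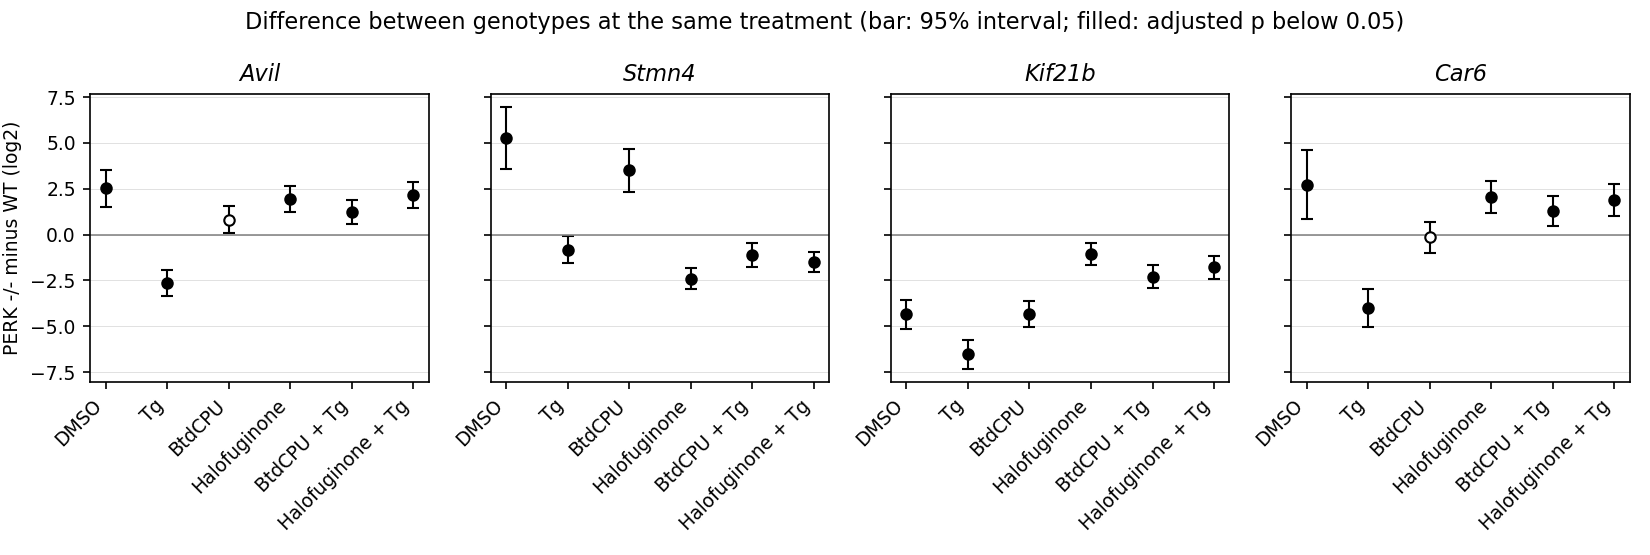
Log2 difference between PERK -/- and WT cells (vertical axis) at each of the 6 treatments (horizontal axis) for each gene; points are the fitted differences, bars 95% intervals, and filled points passed an adjusted p of 0.05. Kif21b lay below 0 at all 6 treatments, and Avil ran from 2.52 under DMSO to -2.65 under thapsigargin and 2.17 under halofuginone with thapsigargin.

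The addition of halofuginone to thapsigargin went with lower levels of Avil, Kif21b and Car6 in WT cells and with higher ones in PERK -/- cells. In WT cells it went with lower Avil (-2.08, SE 0.335, edgeR adjusted p = 6.78e-06), Kif21b (-1.59, SE 0.289, adjusted p = 3.82e-05) and Car6 (-2.04, SE 0.425, adjusted p = 0.000209), 3 of the 3 genes tested beside 45.3% of all genes. Stmn4 had been picked earlier for the size of its rise in this very comparison and is given as a value: it stood 3.92 (SE 0.309) above thapsigargin alone, 1582 counts against 104. The epithelial list of 4 markers moved with Stmn4 in WT cells: its summed level was 16.9 to 23.5 CPM under halofuginone, 7.97 to 10.5 under halofuginone with thapsigargin, 0.416 to 4.24 under thapsigargin and 0.114 to 0.337 under DMSO, carried by Krt8 and Krt18 with Epcam at 0.169 CPM or less in every library. The 3 endothelial markers summed to 2.73 to 5.06 CPM under halofuginone and 1.27 to 2.04 with thapsigargin added, against 0.155 to 0.618 under DMSO, and the leukocyte markers to 1.39 to 3.27 and 0.635 to 2.18 against 0.0857 to 0.169. Nefl averaged 18.5 CPM under halofuginone against 3.95 under DMSO, and Nefm 3.18 against 0.198. The part of these markers in the Stmn4 values was not tested.

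The addition of BtdCPU to thapsigargin in WT cells gave calls for 2.32% of all genes. None of the 3 genes tested passed edgeR's adjusted threshold; 1 had an unadjusted p under 0.05 and 1 passed with DESeq2, Stmn4 in both cases. Stmn4 differed by 0.96 (95% interval 0.31 to 1.61, adjusted p = 0.0971), and the replicate numbers pair these groups: with the replicate number as a block the difference was 0.95 and the adjusted p 0.0281. Kif21b differed by -0.15 (95% interval -0.73 to 0.43, adjusted p = 0.836) and Car6 by -0.66 (95% interval -1.49 to 0.16, adjusted p = 0.411). Avil, picked earlier for its fall here, stood at -1.20 (SE 0.321), and its 3 libraries lay below the 3 of thapsigargin alone.

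In PERK -/- cells each result that passed was a higher level with the compound added. Halofuginone with thapsigargin lay above thapsigargin alone for all 4 genes, beside 52.7% of all genes called: by 2.73 for Avil (SE 0.346, edgeR adjusted p = 6.44e-08), 3.85 for Car6 (SE 0.488, adjusted p = 6.44e-08), 3.14 for Kif21b (SE 0.353, adjusted p = 6.95e-09) and 3.27 for Stmn4 (SE 0.326, adjusted p = 6.15e-10). BtdCPU with thapsigargin lay above thapsigargin alone by 2.68 for Avil (SE 0.346, adjusted p = 3.20e-07), 1 of the 2 genes tested there, beside 35.6% of all genes. For Stmn4, the other gene tested, the groups overlapped and the difference was 0.69 (95% interval -0.05 to 1.44, adjusted p = 0.139); without PERK -/- Tg replicate 2 it was 1.23 and passed (adjusted p = 0.0216). Kif21b and Car6 had been picked earlier for their size in this comparison and stood 4.08 (SE 0.356) and 4.62 (SE 0.494) above thapsigargin alone, with no overlap.

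The difference between genotypes in the change over thapsigargin is an interaction, and it contains the values within each genotype. For halofuginone it was positive, that is higher in PERK -/- cells, for Avil (4.82, SE 0.481, edgeR adjusted p = 5.75e-09), Kif21b (4.73, SE 0.457, adjusted p = 3.45e-09) and Car6 (5.89, SE 0.648, adjusted p = 3.18e-08), 3 of the 3 genes tested beside 32.7% of all genes. For BtdCPU the differences of Avil, Kif21b and Car6 contain values picked earlier for their size, so they are given with no test: 3.88 (SE 0.471) for Avil, 4.23 (SE 0.451) for Kif21b and 5.29 (SE 0.633) for Car6. The background there was 20.8% of all genes, and both interactions use the same thapsigargin libraries. The WT thapsigargin libraries gave rises by which the genes were chosen, and a high level there raises both differences. The tests of these interactions are thus not free of the choice. Stmn4, the 1 gene tested for BtdCPU, passed neither edgeR's adjusted threshold nor an unadjusted p of 0.05 nor DESeq2 (-0.27, 95% interval -1.27 to 0.74, edgeR adjusted p = 0.764). For halofuginone the Stmn4 difference, which contains a picked value, was -0.65 (SE 0.452).

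**Figure D3:**
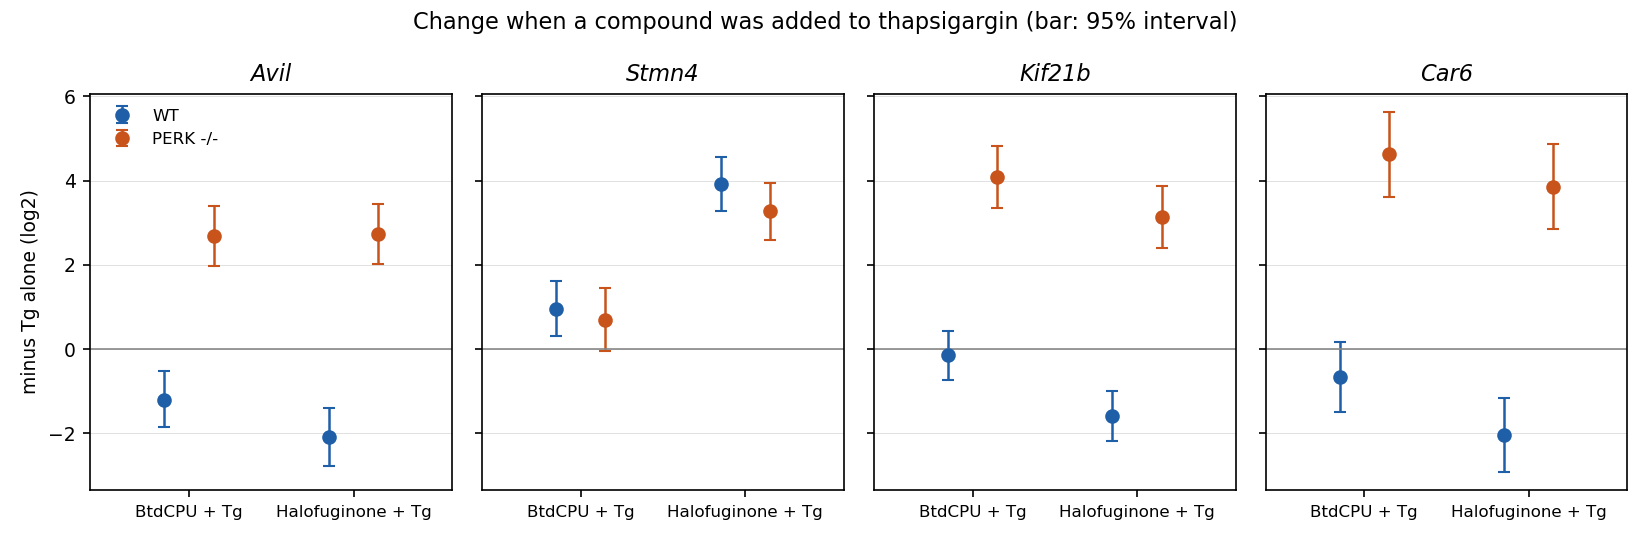
Log2 change when BtdCPU or halofuginone was added to thapsigargin (horizontal axis), relative to thapsigargin alone (vertical axis), in WT (blue) and PERK -/- cells (orange); points are fitted differences and bars 95% intervals. Avil, Kif21b and Car6 lay below 0 in WT cells (-2.08 to -0.15) and above 0 in PERK -/- cells (2.68 to 4.62) for both compounds, and the Stmn4 intervals of the genotypes overlapped for each. For BtdCPU in WT cells the intervals of Kif21b (-0.73 to 0.43) and Car6 (-1.49 to 0.16) included 0.

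Halofuginone and BtdCPU, each alone, were compared within each genotype. Their doses are not given, so the values hold for these treatments only. Both groups of libraries also gave rises by which the genes were chosen, so these tests are not free of the choice. In PERK -/- cells all 4 genes were higher under halofuginone, beside 36.1% of genes called: Avil by 1.97 (SE 0.333, edgeR adjusted p = 2.22e-05), Car6 by 1.66 (SE 0.413, adjusted p = 0.00186), Kif21b by 1.51 (SE 0.314, adjusted p = 0.000319) and Stmn4 by 2.49 (SE 0.315, adjusted p = 2.55e-07). In WT cells 3 of 4 were called, beside 64.4% of genes, and not in 1 direction. Stmn4 was higher under halofuginone, 2156 counts against 6, and passed edgeR's adjusted threshold. The fitted difference was 7.79 in place of 8.40 without WT BtdCPU replicate 2. The WT BtdCPU libraries were at or under the floor for Stmn4, as were those of DMSO. This test thus largely repeats the rise against DMSO by which Stmn4 was chosen. Kif21b was lower under halofuginone (-1.77, SE 0.293, adjusted p = 4.04e-06). Car6 overlapped (-0.52, 95% interval -1.41 to 0.36, adjusted p = 0.287). Avil was higher by 0.84 (SE 0.357, adjusted p = 0.0401), a call that was lost without any 1 of 5 of the 6 libraries (all but WT BtdCPU replicate 3; adjusted p 0.0535 to 0.189) and when scaled by library size alone (0.0505).

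The other genes of the 4 families were counted in the 6 comparisons of 1 agent with DMSO; 20 of 29 passed the filter on low counts. Under thapsigargin in WT cells 1 relative rose and 6 fell (beside 47.6% of all genes called), and in PERK -/- cells 4 rose and 1 fell (beside 27.9%). BtdCPU gave 1 higher and 1 lower in WT cells (beside 22.2%) and 0 in PERK -/- cells (beside 3.59%), where edgeR left 3 with an unadjusted p under 0.05 and DESeq2 called 0. Halofuginone gave 5 higher and 10 lower in WT cells (beside 68.2%) and 1 higher and 7 lower in PERK -/- cells (beside 42.2%). The median log2 change of the 20 relatives was between -0.39 and 0.23 in these 6 comparisons, with medians of all genes between -0.01 and 0.05.

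Within the families, the largest change of a relative with at least 1 CPM on average came from halofuginone in WT cells in each case. Vill, a villin-like actin-binding protein, fell by 1.33 (SE 0.269, edgeR adjusted p = 6.20e-05) on the log2 scale, and Gsn, gelsolin itself, fell by 1.22 there (SE 0.0892, adjusted p = 2.50e-13). Stmn1, the widely expressed stathmin that destabilises microtubules, fell by 1.31 (SE 0.142, adjusted p = 1.52e-09) in the libraries in which Stmn4 was highest. Kif21a, the closest relative of Kif21b, rose by 0.59 (SE 0.155, adjusted p = 0.00131). Car2, the cytosolic carbonic anhydrase, rose by 3.10 (SE 0.469, adjusted p = 8.41e-07), from 0.167 to 1.44 CPM.

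The level of each gene over the 36 libraries was set beside those of 12407 other genes by Pearson's r of log2 CPM, as a description; the libraries share treatments, and no p is given. Avil was most like Lonp1 (r = 0.95), a mitochondrial protease, and then Angptl6, Fads3, Aldh18a1 and Hax1 (all 0.93). Car6 was most like Eif4ebp1 (r = 0.95), an inhibitor of cap-dependent translation, Aldh18a1, an enzyme of proline synthesis, Angptl6 and Ets2 (0.94 each), and Cth (0.93), an enzyme of transsulfuration. Avil and Car6 had r = 0.93 with each other (rank 6 of the genes most like Avil, rank 11 for Car6), 0.92 within the 18 WT and 0.95 within the 18 PERK -/- libraries. Angptl6 shows the shared course: it averaged 0.797 CPM in WT cells under DMSO, 14.1 under thapsigargin and 7.24 under halofuginone with thapsigargin, and in PERK -/- cells 1.84, 3.14 and 22.0.

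Kif21b was most like Mmp19 (r = 0.96), a matrix metalloprotease, Tor3a and Smap1 (0.93), and Slc38a1 and Enox1 (0.92). Its r with Avil was 0.33 over all libraries but 0.75 within WT and 0.96 within PERK -/- libraries, and with Car6 0.50, 0.85 and 0.98. Stmn4 was most like 1700024P16Rik, Gdap2, Kdm5a and Snx16 (0.96 each) and Hist1h2ba (0.95). Snx16, for instance, averaged 7.56 CPM in WT cells under DMSO, 13.6 under thapsigargin and 42.2 under halofuginone. Stmn4 had r = 0.54 with Avil, 0.45 with Car6 and 0.13 with Kif21b.

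Set beside the stress genes, Car6 had r = 0.90 with Ddit3 (CHOP), 0.91 with Trib3 and 0.92 with Asns, and Avil 0.84, 0.78 and 0.89. Among the 12407 genes these ranked 25, 16 and 12 for Car6 and 30, 103 and 11 for Avil. The 4 genes were chosen for rises under the same compounds, so a high r with stress genes follows in part from the choice. With Chac1, Atf3 and Gadd45a, r was 0.74, 0.73 and 0.71 for Avil and 0.83, 0.78 and 0.79 for Car6. The ER chaperone genes Hspa5 and Dnajb9 had the lowest r of the 8, 0.66 and 0.52 for Avil and 0.55 and 0.42 for Car6. By Spearman's rho this order did not hold: Hspa5 (0.67 with Avil, 0.54 with Car6) was above Chac1 (0.58 and 0.52), Atf3 (0.55 and 0.47) and Gadd45a (0.55 and 0.49). Kif21b had r between 0.35 (Asns) and 0.67 (Gadd45a) with the 8 genes over all libraries. Within PERK -/- libraries its r was 0.95 with Ddit3, Trib3, Chac1, Atf3 and Gadd45a. There it was 0.93 with Asns, 0.58 with Hspa5 and 0.42 with Dnajb9. Within WT libraries its r lay between 0.45 (Gadd45a) and 0.77 (Trib3). Stmn4 was most like Atf3 of the 8 (0.78, rank 663), and least like Dnajb9 (0.37). Within WT libraries Avil had r = 0.96 and Car6 r = 0.94 with Ddit3, and Car6 also had 0.94 with Trib3. Within PERK -/- libraries r with Ddit3 was 0.88 for Avil and 0.91 for Car6. There it was below that with Atf3 (0.96 and 0.95) and Gadd45a (0.95 and 0.96). In WT halofuginone libraries, replicate 3 was also the lowest for Ddit3 (149, 173 and 125 CPM) and Trib3 (151, 166 and 91.8 CPM), but not for Atf3 (153, 148 and 153 CPM).

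**Figure D4:**
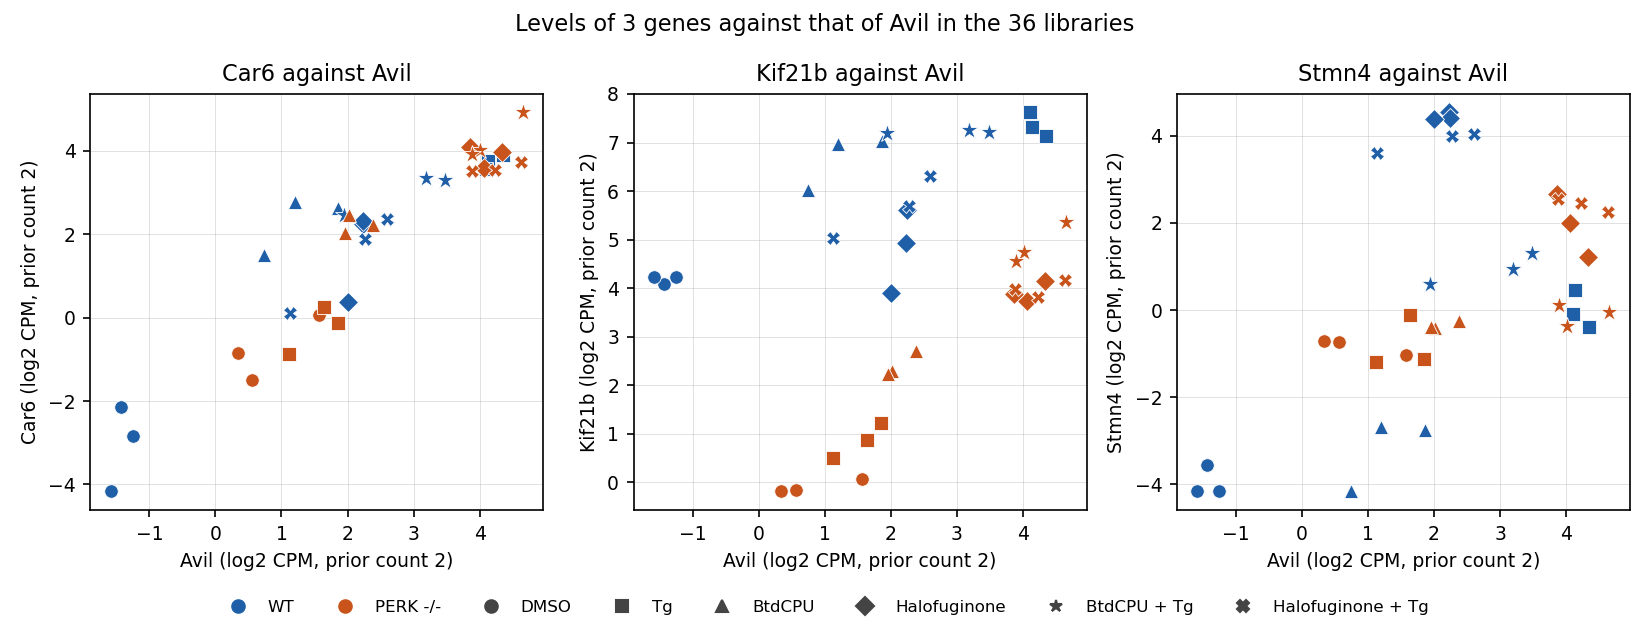
Log2 CPM of Car6, Kif21b and Stmn4 (vertical axes) against that of Avil (horizontal axes) in the 36 libraries; colours give the genotype and marker shapes the treatment. Car6 followed Avil in both genotypes (r = 0.93), Kif21b formed a separate band in each genotype (r = 0.75 in WT and 0.96 in PERK -/- libraries), and the WT halofuginone libraries stood at high Stmn4 and middle Avil.

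No gene in the RefSeq annotation of GRCm38.p6 overlaps one of the 4. The nearest gene with a count on each side was set beside each. Beside Avil, Ctdsp2 fell by 0.63 (SE 0.152, edgeR adjusted p = 0.00101) and Tsfm rose by 0.28 (SE 0.104, adjusted p = 0.0245) under thapsigargin in WT cells. Beside Stmn4, under halofuginone in WT cells, Trim35 was at 0.22 (SE 0.101, adjusted p = 0.050) and Dpysl2, a tubulin-binding protein gene, fell by 2.74 (SE 0.206, adjusted p = 5.27e-13). Trim35 rose elsewhere: by 0.88 under thapsigargin (SE 0.102, adjusted p = 1.98e-08) and 0.70 under BtdCPU (SE 0.102, adjusted p = 7.42e-06) in WT cells, and by 0.67 under halofuginone (SE 0.102, adjusted p = 2.53e-06) and 0.44 under BtdCPU (SE 0.101, adjusted p = 0.00734) in PERK -/- cells. Beside Car6, Eno1 fell by 0.29 (SE 0.111, adjusted p = 0.0316) under thapsigargin in WT cells, and Slc2a7 held 10 counts over all 36 libraries. The neighbours of Kif21b, Gm15850 and Mroh3, held 15 and 41 counts over all libraries and were not tested.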

How the data were processed

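The authors deposited 1 table of estimated counts per gene for 36 libraries, in which 50.6% of values were 0.025 and 2.69% of the others were not whole; they were rounded to whole numbers here. Per the labels' protocols, RNA was extracted with a column kit and sequenced as strand-specific DNBSEQ libraries. Per the submitters' processing notes, GRCm39 and DESeq were used; the aligner and the counter are not given in the sources used here. Left out were 27 entries whose symbols had become dates (0.206 to 0.278% of a library), and 86 entries of 39 repeated symbols were summed. Counts were scaled by TMM and fitted with edgeR 4.0.16 (quasi-likelihood, robust, 12 group means, 24 residual degrees of freedom, R 4.3.3) over 16065 genes passing filterByExpr. P-values were adjusted by Benjamini-Hochberg within each of 14 tested comparisons, and 48 results of the 4 genes were tested. A count of 3 per library was the floor. Nothing beyond a replicate number says that libraries came from separate cultures, so p-values measure the spread between these libraries. No 2 libraries of a group agreed within sampling noise (chi-square per degree of freedom 9.06 to 116 over 36 pairs).

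The genes, their families, the markers and the tests were chosen with earlier results of these data known. Values that an earlier rule had picked for their size (4 of those over thapsigargin), and the 4 differences between genotypes that contain them, are given without a test. Named besides the 4 genes were the 5 genes with the highest Pearson r with each (average log2 CPM of at least 0, prior count 2), 8 stress genes, neighbours, and the relative with the largest change in each family; Gsn was named, and Angptl6 and Snx16 were picked as examples, after their values were seen. Same-numbered libraries deviated together (every correlation over 0.1, lowest 0.16) in 2 comparisons, both additions to thapsigargin in WT cells. No other comparison met this rule, though some correlations in WT cells were as high, as for BtdCPU against DMSO (0.07, 0.25 and 0.29). Alternatives were RLE scaling, library size alone, no filter, DESeq2 1.42.0, only the compared groups, a replicate block and leaving out each library. The fit was tested on simulated counts.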

Additional observations from a re-analysis of the deposited data

Results flagged for a closer look

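The change on adding halofuginone to thapsigargin differed between the genotypes for 3 of the 3 genes tested by the interaction test, beside 32.7% of all genes. The log2 difference between the genotypes' changes was 4.82 for Avil, 4.73 for Kif21b and 5.89 for Car6. In the PERK -/- cells all 3 libraries of halofuginone with thapsigargin held more of each gene than the 3 of thapsigargin alone, and in the WT cells all 3 held less. The treated libraries that enter this test also gave the rises by which the genes were chosen. The Stmn4 difference, which contains a picked value and was not tested, was -0.65 (SE 0.452).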

How the results depend on the processing

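Of 48 tested results, 40 passed the threshold and 8 did not. None of these tests is free of the choice of the genes, and the Stmn4 call for WT halofuginone against BtdCPU largely repeats the chosen rise. All 48 kept direction and side of the threshold with RLE scaling, 46 with DESeq2, 45 when scaled by library size alone, 44 with no filter on low counts, 46 in a fit of only the compared groups and 46 with the replicate block.

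The Avil difference between genotypes under BtdCPU passed with library size alone (0.96), no filter (0.78), the compared groups alone (0.80) and DESeq2 (0.81). Stmn4 on BtdCPU over thapsigargin in WT cells passed with no filter (0.95), DESeq2 (0.95) and the replicate block (0.95). With no filter, Car6 passed there too (-0.68), as it did for WT halofuginone against BtdCPU (-0.59). The WT Avil difference between halofuginone and BtdCPU was lost with library size alone (0.80) and with the replicate block (0.80, adjusted p = 0.0589). The Stmn4 difference between genotypes under thapsigargin was lost with library size alone (-0.76) and the compared groups alone (-0.84). The replicate block changed no other call. In comparisons whose libraries share only a number, it says nothing about the strength of an effect.

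Leaving out 1 library at a time lost or gained a call, or turned a sign, for 9 results. The differences between genotypes ranged from 2.14 to 3.66 for Car6 at rest, from -1.33 to -0.55 for Stmn4 under thapsigargin, from 0.57 to 1.17 for Avil and from -0.46 to 0.08 for Car6 under BtdCPU, from -1.35 to -0.58 for Kif21b under halofuginone, and from 0.94 to 1.5 for Car6 under BtdCPU with thapsigargin. The WT Avil difference between halofuginone and BtdCPU ranged from 0.60 to 1.2, Stmn4 on BtdCPU over thapsigargin in PERK -/- cells from 0.49 to 1.23, and its difference between genotypes from -0.51 to 0.27. The Car6 value of 0.08 came without WT BtdCPU replicate 1 and the Stmn4 value of 0.27 without PERK -/- Tg replicate 2. Of the values against DMSO, that of Stmn4 for thapsigargin in PERK -/- cells ranged from -0.43 to 0.32 and turned to -0.04 without DMSO replicate 3 and to -0.43 without Tg replicate 2. By Spearman's rho over libraries, 4 of the 5 genes most like Avil remained among the first 5, 1 for Stmn4, 4 for Kif21b and 2 for Car6. By r over group means, 4, 1, 3 and 3 remained. The cause was not tested in any of these cases. With 0 to 6 counts in a library, Stmn4 under DMSO and BtdCPU and Car6 under DMSO in WT cells were too low for a fold change of known size.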
